A study of Mus musculus with 16 samples.

Results

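Daily imiquimod cream is used in mice to model psoriasis, and the spleen responds to it with changes in immune and blood-forming cells. The values described here are the differences between PKR knockout and wild-type mice in how the spleen transcriptome moved from day 1 to day 5 of that treatment. For each gene the quantity is (knockout day 5 minus knockout day 1) minus (wild type day 5 minus wild type day 1) on the log2 scale, called the interaction below. A positive value means that the gene ended relatively higher, or fell less, in the knockout. It was fitted for all 18745 genes with enough counts, and rests on 8 of the series' 16 libraries.

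All mice were male C57BL/6 and all in the 4 groups were treated with the cream (62.5 mg a day, 5% imiquimod) on shaved back skin. The groups were wild type on day 1, wild type on day 5, PKR KO on day 1 and PKR KO on day 5, with 2 libraries each. Every library pooled the spleens of 2 mice, minced through a 70 µm mesh and treated with red cell lysis buffer, and total RNA was sequenced after removal of ribosomal RNA. No group received cream without imiquimod, so the treatment, the cream and the passing of time cannot be told apart. The labels state neither the knockout allele nor whether it is limited to some cells.

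PKR, encoded by Eif2ak2, is a kinase that binds double-stranded RNA and then phosphorylates the translation factor eIF2alpha, which lowers protein synthesis and favours translation of the transcription factor ATF4. Its gene is itself induced by interferon. Imiquimod activates Toll-like receptor 7, and in the spleen this leads to interferon production, growth of myeloid cells and blood formation outside the bone marrow.

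Library totals ranged from 35026754 to 67333830 fragments over the 16 libraries. Both wild-type day 1 libraries stood apart from the rest in composition, with scaling factors (TMM) of 1.204 and 1.195, and this group enters every interaction. The part of this in the results was not tested. Levels below are fragment counts scaled to library size with those factors (CPM). Levels of a gene in whole spleen do not tell fewer cells of a type apart from less RNA per cell.

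The targeted gene was lower in the knockout libraries but was not absent. Eif2ak2 stood at 100.6 and 96.1 CPM in the wild type on day 1, then 29.2 and 30.2 on day 5. In the knockout it stood at 43.0 and 37.0 on day 1, then 15.8 and 18.8 on day 5. All knockout libraries lay below both wild-type libraries of the same day. In edgeR this genotype difference passed on neither day (log2 -1.30, adjusted p = 0.117 on day 1, and log2 -0.78, adjusted p = 0.653 on day 5). Eif2ak2 fell from day 1 to day 5 in both genotypes (log2 -1.73 in wild-type and -1.21 in knockout mice, adjusted p = 0.00071 and 0.0069). The interaction was 0.52 (95% interval -0.37 to 1.40, adjusted p = 0.929). Which exons the knockout lacks is not given in the sources used here, so reads from the remaining exons say nothing on the protein.

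The knockout and the wild type followed largely the same course. In the wild type 4127 genes (22% of those tested) rose and 3570 (19%) fell from day 1 to day 5, by edgeR's quasi-likelihood test at an adjusted p under 0.05. In the knockout 3616 (19.3%) rose and 3462 (18.5%) fell. Of the 9167 genes called in at least one genotype, 8922 (97.3%) had the same sign in both. Across genes the courses had a Pearson r of 0.863 and a Spearman rho of 0.816, as a description only, since genes are not independent replicates. A total of 2936 genes rose in both and 2667 fell in both.

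The genotype difference in course passed the test for 1 gene, Gm25395, which is 0.00533% of the genes tested. At an unadjusted p under 0.05 there were 1123 genes (5.99%), 507 of them (2.7% of all) with a higher and 616 (3.29%) with a lower course in the knockout. Other tools gave 5 genes (DESeq2) and 0 genes (limma on log2 FPKM, with either pseudocount). The 95% interval of the interaction had a median half-width of 0.63, so for the median gene a difference in course of that size would have been needed to move the interval off 0. Genotype differences within a day depended on the tool. In edgeR 27 genes were higher (0.144%) and 8 lower (0.0427%) in the knockout on day 1, and 0 were higher (0%) and 1 lower (0.00533%) on day 5. On day 5, 1177 genes (6.28%) had an unadjusted p under 0.05, and DESeq2 called 72. On day 1 DESeq2 called 171 higher and 29 lower, while limma on log2(FPKM + 0.5) turned the balance, with 6 higher and 20 lower.

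**Figure D1:**
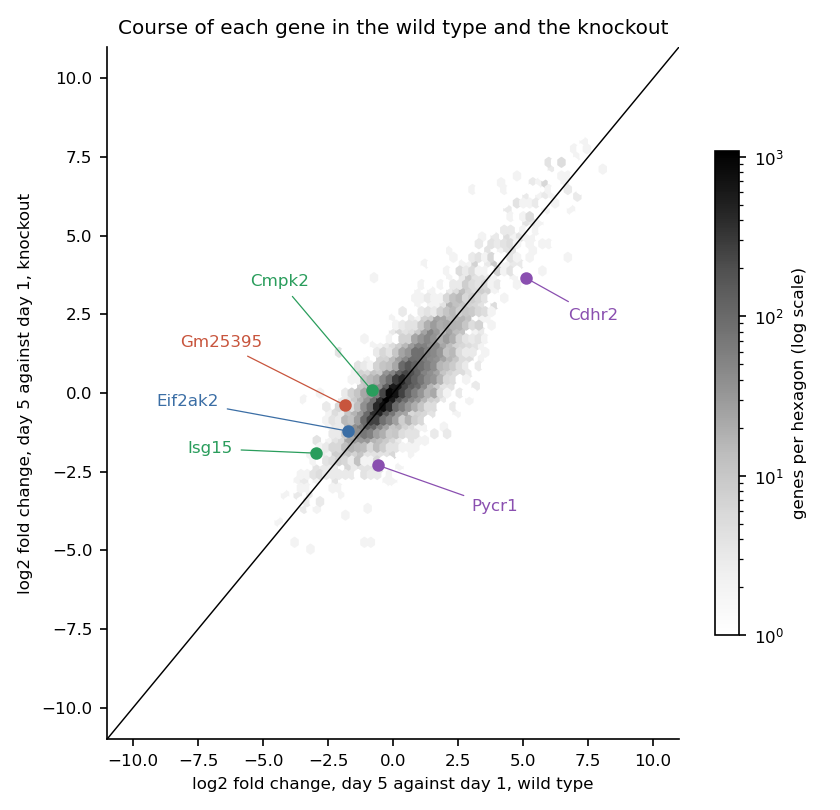
Log2 fold change of each of the 18745 genes from day 1 to day 5 in the wild type (horizontal) and in the knockout (vertical), as hexagons shaded by the number of genes on a log scale, with the line of equal change. Gm25395, at -1.84 and -0.39, is the gene whose distance from the line passed the test.

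Gm25395 is annotated as a scaRNA, a class of small RNAs that guide chemical modification of spliceosomal RNAs in Cajal bodies. It lies at chr1:87776938-87777209 on the plus strand (mm10), in intron 10 of the kept transcript of Atg16l1, an autophagy gene. None of the 11 annotated Atg16l1 transcripts has an exon over it. Its sequence is shown because it is the gene called, with the letters TGATGA (found 2 times) and CTGA (found 5 times), the core letters of the box C and box D motifs that one family of such guide RNAs carries, in capitals; a match of letters is a description, not a site. The transcript sequence is from GENCODE M21, 272 bases:

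Gm25395: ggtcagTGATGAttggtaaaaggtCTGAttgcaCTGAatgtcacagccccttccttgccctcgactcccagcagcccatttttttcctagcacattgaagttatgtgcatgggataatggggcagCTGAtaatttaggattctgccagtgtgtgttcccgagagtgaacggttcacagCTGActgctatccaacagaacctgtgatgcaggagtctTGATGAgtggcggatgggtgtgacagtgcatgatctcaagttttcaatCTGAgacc

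Gm25395 stood at 134.6 and 130.5 CPM in the wild type on day 1, then 37.4 and 36.6 on day 5. In the knockout it stood at 62.4 and 61.3 on day 1, then 50.8 and 43.3 on day 5. On day 1 the knockout was low and on day 5 it was high against the wild type, without overlap on either day. It fell in both genotypes (log2 -1.84 and -0.39), and the interaction was 1.45 (95% interval 1.00 to 1.89, adjusted p = 0.039). On day 0 the levels were 266.7 and 192.4 in wild-type and 266.8 and 273.6 in knockout mice, so both day 1 groups were below all 4 day 0 libraries. The call was lost when any 1 of the 8 libraries was left out (adjusted p from 0.0976 to 0.557), while the value stayed between 1.34 and 1.57. It was also lost without either wild-type day 2 library or either knockout day 0 library, which do not enter the interaction itself (adjusted p from 0.064 to 0.116). In all, 19 of 30 alternatives lost it.

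Neighbouring and host transcripts did not pass the test. Scarna6, another scaRNA in the same host gene, stood at 16.03 and 18.6 CPM in the wild type on day 1, 11.3 and 11.1 on day 5, and in the knockout at 13.1 and 9.06 on day 1 and 10.2 and 11.4 on day 5. Its interaction was 0.59 (95% interval 0.10 to 1.09, adjusted p = 0.752). Atg16l1 itself was between 22.2 and 25.1 CPM in all 8 libraries, with an interaction of 0.14 (-0.20 to 0.48, adjusted p = 0.962). Over the 22 scaRNAs tested the median interaction was 0.00, and 12 were above 0. Of the 80 snRNAs tested, 51 were above 0 and 13 had an unadjusted p under 0.05 with a higher course in the knockout, with 0 lower, and a median of 0.21. None of the 80 passed the adjusted test. Their summed level on day 1 was 692.9 and 681.0 CPM in wild-type and 517.9 and 496.7 in knockout mice. On day 5 it was 368.6 and 391.3 against 518.8 and 377.5, so the day 5 groups overlapped and only knockout replicate 1 was high. These RNA classes were looked at after the data had been seen.

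The lists of genes described next gave no member that passed the test of the interaction in edgeR over all genes, with DESeq2 or with limma. A fit with no filter on low counts called 132 genes, 21 of them members. The lists are given by their counts and medians beside all genes tested, where the median interaction was -0.01, with 48.4% of genes above 0 and 51.6% below. A count of members whose libraries were apart means that every day 5 minus day 1 difference among single knockout libraries lay above, or below, every such difference in the wild type. Over all genes this held for 2185 genes above (11.7%) and 2163 below (11.5%).

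**Figure D2:**
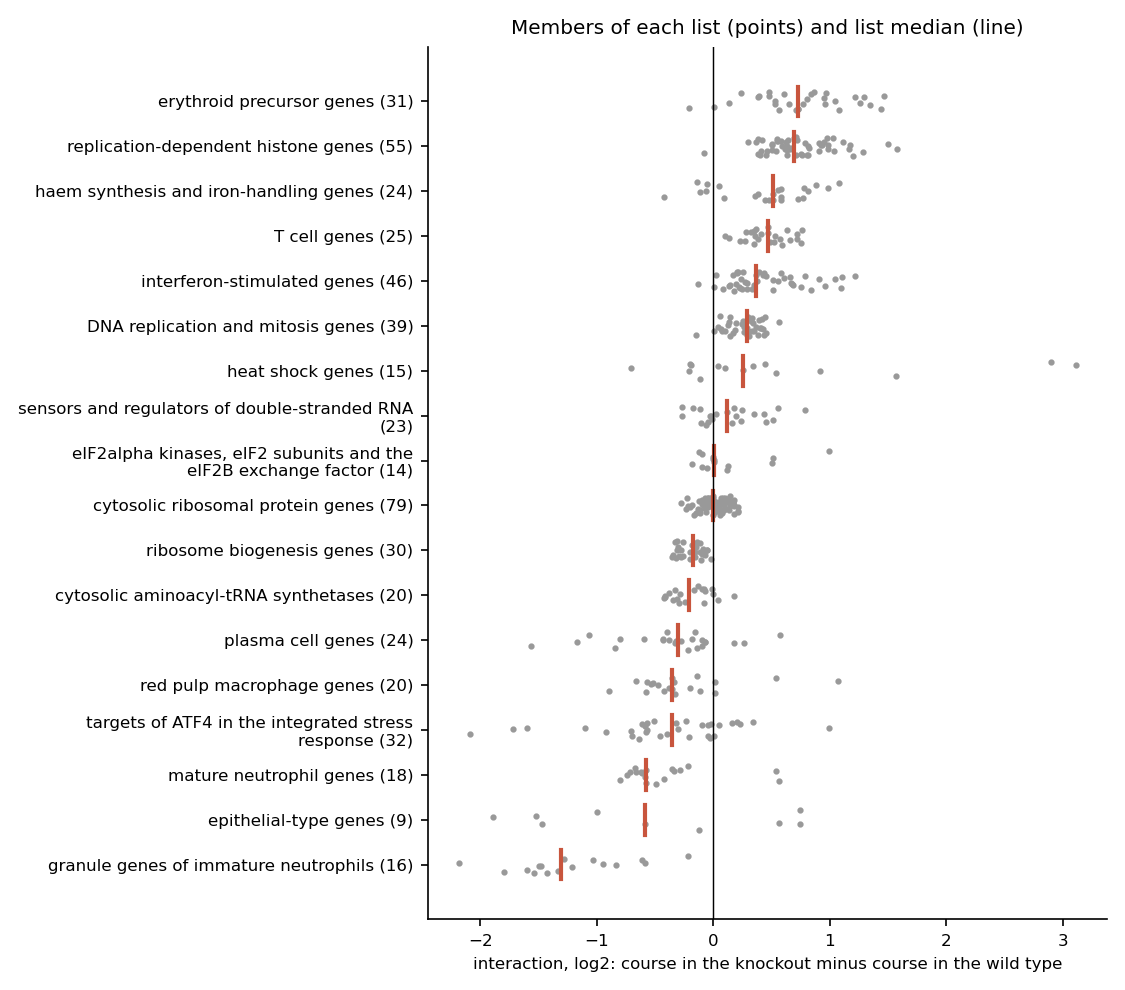
Interaction (log2) of each tested member of 18 lists as points, with the list median as a line and the number of members tested in brackets. Erythroid and histone genes lie mostly right of 0 and granule genes of immature neutrophils lie left of it, and no point in the plot passed the test.

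Interferon-stimulated genes fell in both genotypes, with a smaller median fall in the knockout and no member past the test of that difference. Of 46 tested (47 listed, the targeted gene among them), 43 fell in wild-type and 42 in knockout mice, with median log2 changes of -2.05 and -1.63. The interaction was above 0 in 45 of 46, with a median of 0.37, and 6 members had an unadjusted p under 0.05, all above 0. Libraries were apart for 11 members, all above. The median genotype difference moved from -0.31 on day 1 to 0.09 on day 5. Summed over the list, the level was 5501 and 4845 CPM in the wild type on day 1 against 4321 and 4164 in the knockout, and on day 5 it was 1837 and 1556 against 1607 and 1919. The day 1 groups did not overlap in that sum, and the day 5 groups did. With 1 library left out, the median interaction ranged from 0.13 to 0.59.

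Cmpk2, a mitochondrial nucleotide kinase induced by interferon, stood at 40.9 and 32.1 CPM in the wild type on day 1, then 22.6 and 18.8 on day 5. In the knockout it stood at 26.0 and 26.6 on day 1, then 27.9 and 28.1 on day 5. It fell in the wild type (log2 -0.82, adjusted p = 0.0001), and its change in the knockout was 0.09 (adjusted p = 0.644). The interaction was 0.91 (95% interval 0.51 to 1.31), which did not pass over all genes (adjusted p = 0.35). Isg15, a ubiquitin-like protein that is conjugated to other proteins in the antiviral response, stood at 77.9 and 53.7 CPM in the wild type on day 1, then 10.99 and 5.95 on day 5. Its knockout levels were 48.8 and 44.8 on day 1 and 11.9 and 12.9 on day 5, so the knockout was lower on day 1 and higher on day 5 in every library. The interaction was 1.05 (0.41 to 1.68, adjusted p = 0.617).

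The 250 bases before the start of these genes are shown from the RefSeq promoter table (GRCm38.p6), as the members of the list with the smallest p. Capitals mark a GAAA followed after 2 bases by another GAAA, searched on both strands (TTTC and TTTC on the other), the core of the interferon-stimulated response element; overlapping matches were counted. Isg15 is read on the minus strand at chr4:156200819-156201068 and Cmpk2 on the plus strand at chr12:26468965-26469214:

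Isg15: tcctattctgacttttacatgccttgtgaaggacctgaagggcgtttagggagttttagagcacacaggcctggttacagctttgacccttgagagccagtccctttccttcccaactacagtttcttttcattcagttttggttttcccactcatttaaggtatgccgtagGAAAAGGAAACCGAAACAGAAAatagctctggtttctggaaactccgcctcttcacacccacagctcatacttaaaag
Cmpk2: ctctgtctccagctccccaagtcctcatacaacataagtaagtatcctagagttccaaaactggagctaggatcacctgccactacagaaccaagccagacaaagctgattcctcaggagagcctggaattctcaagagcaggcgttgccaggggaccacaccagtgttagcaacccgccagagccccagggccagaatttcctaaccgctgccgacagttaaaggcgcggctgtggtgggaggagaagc

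Isg15 held 3 overlapping matches between 78 and 57 bases before the start. Cmpk2 held none in this window, which says only that these letters are not in it. In the table's full windows of 300 bases, 16 of the 34 list members with a promoter entry held a match (47.1%), against 3.99% of the 27025 genes in the table.

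**Figure D3:**
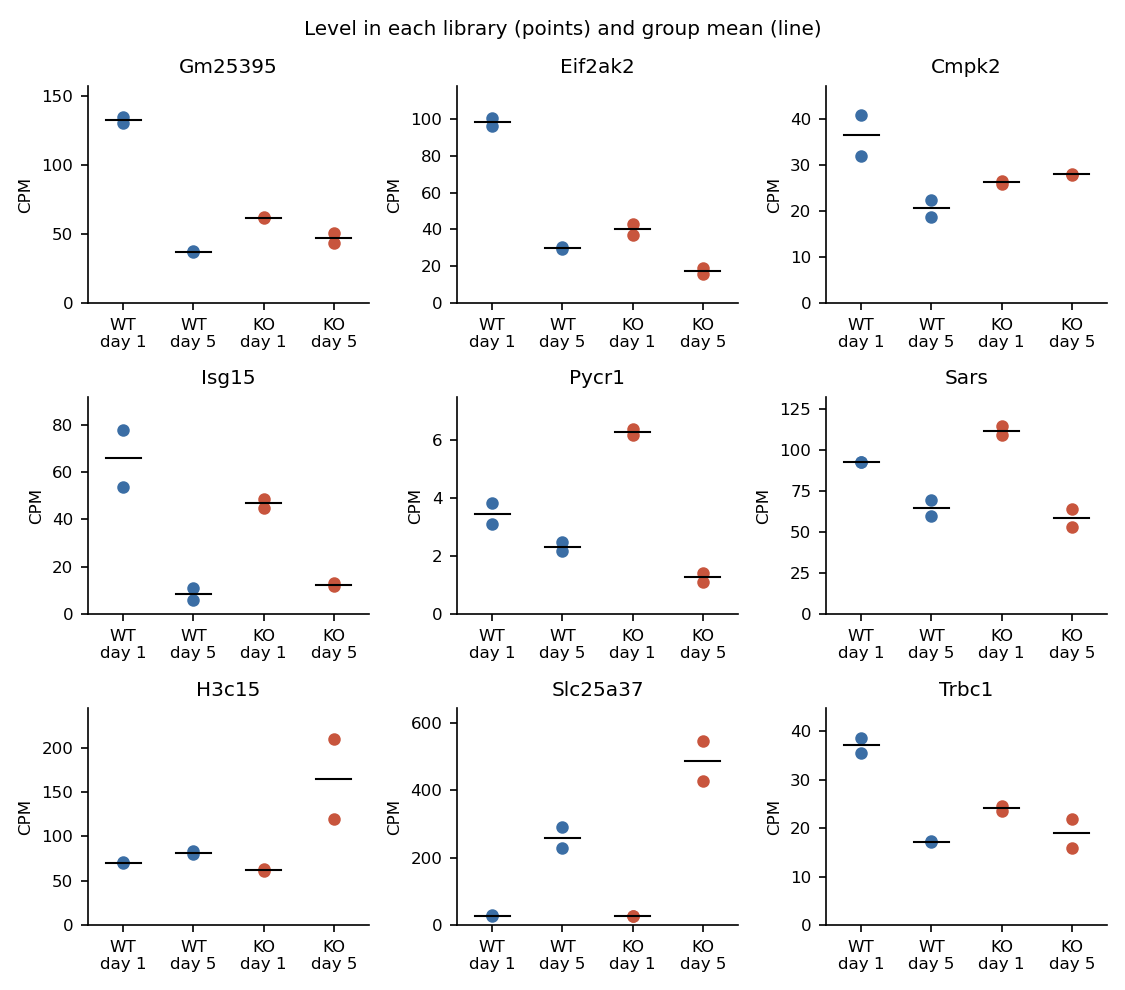
CPM of 9 genes in the 2 libraries of each group (points; blue, wild type; red, knockout) with the group mean as a line. Gm25395 and Cmpk2 are lower in the knockout on day 1 and higher on day 5, and H3c15 and Slc25a37 are highest in the knockout on day 5.

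Sensors and regulators of double-stranded RNA, the class that PKR belongs to, had 13 of 23 interactions above 0. The median was 0.12 (0.05 to 0.25 over the alternatives), none had an unadjusted p under 0.05, and libraries were apart for 4, all above. Zbp1, a sensor of left-handed nucleic acid helices, fell in both genotypes, from 90.4 and 72.9 CPM to 13.9 and 11.9 in the wild type and from 68.2 and 64.3 to 12.6 and 15.9 in the knockout. Its interaction was 0.44 (-0.01 to 0.88, adjusted p = 0.835). Ifih1, which encodes the receptor MDA5, fell from 66.3 and 52.1 to 21.4 and 20.9 in the wild type and from 51.9 and 48.0 to 23.1 and 25.8 in the knockout. Its interaction was 0.45 (-0.02 to 0.92, adjusted p = 0.836).

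By count of members, genes known to be activated by ATF4 mostly had a lower course in the knockout. Of 32 tested (35 listed), 7 were above 0 and the median interaction was -0.36. An unadjusted p under 0.05 was found for 9 below 0 and 1 above, and libraries were apart for 10 below and 2 above. The list fell in 17 members in wild-type and in 20 in knockout mice. The median genotype difference was 0.37 on day 1 and -0.05 on day 5, so the knockout started higher. Summed over the list, the level went from 1080 and 953.2 CPM to 756.4 and 755.4 in the wild type. In the knockout it went from 1189 and 1066 to 902.9 and 792.3. The sums overlapped on day 1 and were higher in the knockout on day 5, so they do not show the lower course. With limma the median interaction was -0.16 (FPKM plus 0.5) and -0.21 (plus 0.1). Atf4 itself had an interaction of 0.23 (unadjusted p = 0.188).

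Pycr1, an enzyme of proline synthesis, stood at 3.82 and 3.12 CPM in the wild type on day 1, then 2.172 and 2.47 on day 5. Its knockout levels were 6.18 and 6.40 on day 1 and 1.42 and 1.12 on day 5, above the wild type on day 1 and below it on day 5. It fell in the knockout (log2 -2.30), its wild-type change of -0.58 did not pass (adjusted p = 0.12), and the interaction was -1.72 (-2.61 to -0.83, adjusted p = 0.492). Gpt2, an alanine aminotransferase of mitochondria, fell from 5.05 and 3.41 to 1.11 and 1.22 in the wild type and from 7.53 and 7.24 to 0.881 and 1.03 in the knockout. Its interaction was -1.10 (-1.88 to -0.33, adjusted p = 0.658). For 3 enzymes of serine synthesis and its use, picked after their values were seen, the interaction was also below 0. It was -0.58 for Psat1, -0.57 for Phgdh and -0.59 for Shmt2, and none of them passed the test. Of the 32 ATF4 targets tested, 7 lay on the other side, the highest at 1.00 (Ppp1r15a, described below).

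The cytosolic aminoacyl-tRNA synthetases, several of which are ATF4 targets, fell in 18 of 20 in each genotype. Of the 20, 2 had an interaction above 0, with a median of -0.21, and libraries were apart for 6, all below. Sars, which charges serine tRNA, stood at 92.8 and 92.8 CPM in the wild type on day 1, then 59.96 and 69.5 on day 5. Knockout libraries stood at 114.7 and 109.1 on day 1, then 63.9 and 53.4 on day 5, higher on day 1 and overlapping the wild type on day 5. The interaction was -0.41 (-0.79 to -0.03, adjusted p = 0.793). Tars, for threonine, gave -0.42 (-0.76 to -0.07, adjusted p = 0.745).

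The list of eIF2alpha kinases, eIF2 subunits and the exchange factor eIF2B also held the phosphatase regulator Ppp1r15a. In it 8 of 14 were above 0 and the median interaction was 0.00. Eif2ak1, the haem-regulated kinase that is abundant in red cell precursors, stood at 29.7 and 29.9 CPM in the wild type on day 1, with 81.2 and 71.9 on day 5. Knockout libraries stood at 29.5 and 30.6 on day 1, then 117.5 and 101.3 on day 5, so the genotypes overlapped on day 1 and were apart on day 5. It rose in both genotypes (log2 1.36 and 1.86), with an interaction of 0.50 (0.13 to 0.87, adjusted p = 0.702). Ppp1r15a, which directs a phosphatase to eIF2alpha, stood at 95.6 and 106.1 CPM, then 119.8 and 96.5 in the wild type, and at 75.2 and 65.5, then 164.1 and 136.8 in the knockout. It rose in the knockout (log2 1.10), the wild-type change was 0.10 (adjusted p = 0.82), and the interaction was 1.00 (-0.00 to 2.00, adjusted p = 0.835).

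**Figure D4:**
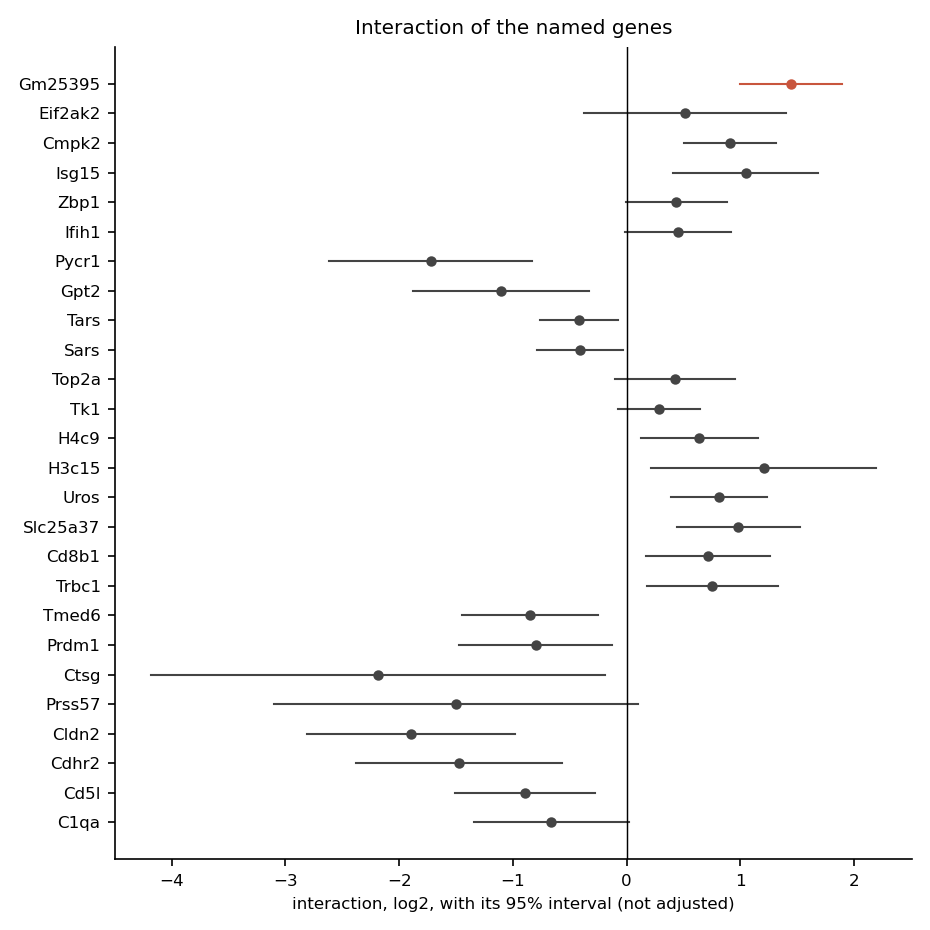
Interaction (log2) of 26 named genes with its 95% interval, not adjusted for the number of genes. Gm25395, in red, passed the adjusted test, and none of the others passed over all genes. Apart from Gm25395 and Eif2ak2, the genes were picked from their lists for the smallest p of this same interaction. That most of their intervals exclude 0 follows from this choice and is no result.

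Genes of red cell formation rose strongly in both genotypes and were highest in the knockout on day 5. All 31 erythroid precursor genes tested (32 listed) rose in each genotype, with median log2 changes of 5.37 and 6.15. Their summed level was 14410 and 10770 CPM in the wild type on day 5 against 27170 and 20060 in the knockout. On day 1 the replicates differed, at 712.3 and 338.9 in wild-type and 298.7 and 593.5 in knockout mice. The interaction was above 0 in 30 of 31 with a median of 0.73, and libraries were apart for 3. Without wild-type day 1 replicate 1 the median was -0.02, and without knockout day 1 replicate 2 it was 1.64, so the sign rested on the day 1 libraries. Red cell lysis buffer was used on every spleen.

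Genes of haem synthesis and iron handling showed smaller day 1 spread. Of 24 tested, 19 had an interaction above 0, with a median of 0.51, an unadjusted p under 0.05 in 10 (all above) and libraries apart in 13 (all above). With 1 library left out the median stayed between 0.36 and 0.70. Slc25a37, the mitochondrial iron importer mitoferrin, stood at 29.5 and 26.8 CPM in the wild type on day 1, then 291.7 and 227.6 on day 5. The knockout stood at 25.7 and 27.7 on day 1, then 546.4 and 426.4 on day 5. The day 1 groups overlapped and the day 5 groups did not. The interaction was 0.98 (0.44 to 1.53, adjusted p = 0.529). Uros, an enzyme of haem synthesis, went from 5.00 and 5.93 to 27.9 and 29.2 in the wild type and from 4.94 and 4.30 to 46.9 and 37.8 in the knockout (interaction 0.82, 0.39 to 1.24, adjusted p = 0.492). Epb41, a protein of the red cell membrane skeleton, had an interaction of 0.65 (0.22 to 1.08, adjusted p = 0.617).

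DNA replication and mitosis genes had a slightly higher course in the knockout. Of 39 tested, 38 had an interaction above 0, with a median of 0.29, 0 members had an unadjusted p under 0.05, and libraries were apart for 10, all above. In the wild type 25 rose and in the knockout 30. Summed levels on day 5 were 4081 and 4386 CPM in wild-type and 6021 and 4740 in knockout mice. Knockout day 5 replicate 1 stood well above the other, which lay close to the wild type. With 1 library left out the median interaction ranged from 0.13 to 0.47. Top2a, the topoisomerase of dividing cells, stood at 252.0 and 287.4 CPM, then 335.4 and 364.6 in the wild type, and at 234.6 and 267.3, then 474.0 and 400.2 in the knockout. It rose in the knockout (log2 0.80), and the interaction was 0.42 (-0.10 to 0.95, adjusted p = 0.888).

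Replication-dependent histone genes, whose transcripts are made in S phase, rose in 31 of 55 in the wild type and in 55 of 55 in the knockout. The interaction was above 0 in 54 of 55, with a median of 0.69, an unadjusted p under 0.05 in 12, and libraries apart for 46, all above. Summed levels on day 5 were 8461 and 9102 CPM in wild-type and 16820 and 10910 in knockout mice, while on day 1 they lay between 4743 and 5003. Knockout day 5 replicate 1 stood well above the other, and the median was 0.33 without it and 1.03 without replicate 2. H3c15 went from 70.8 and 69.7 to 79.7 and 83.2 in the wild type and from 62.9 and 60.4 to 210.0 and 119.5 in the knockout (interaction 1.20, 0.22 to 2.19, adjusted p = 0.749). Near-identical histone copies share reads, so single histone genes are uncertain.

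**Figure D5:**
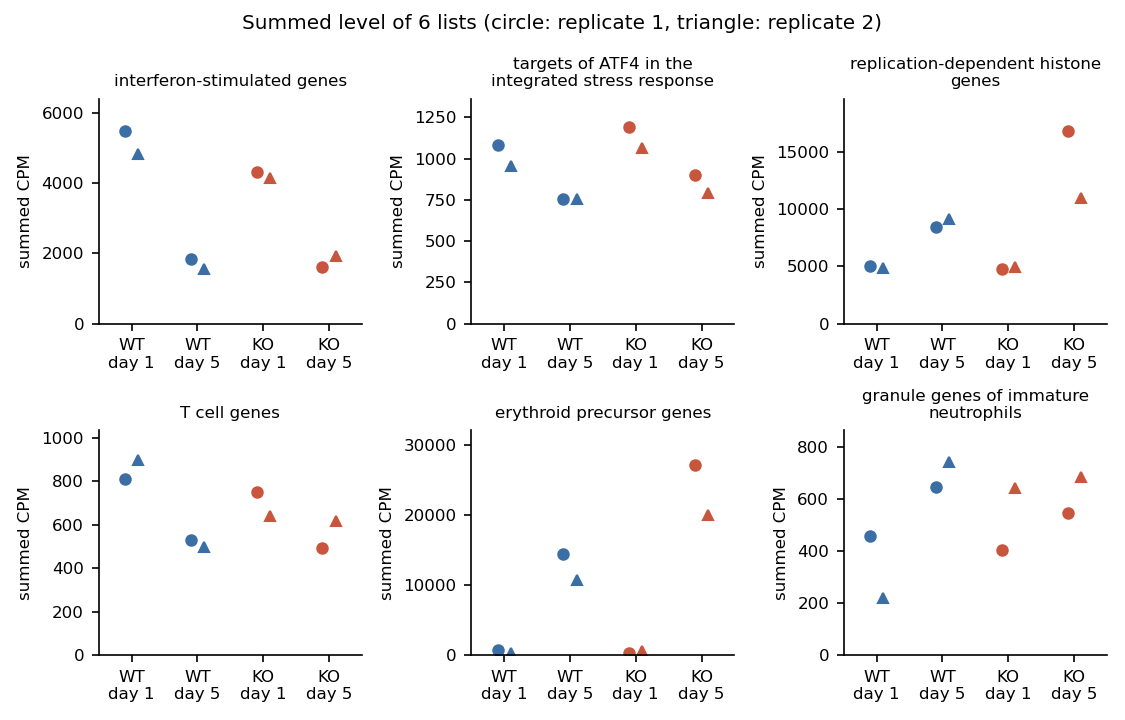
Summed CPM of 6 lists in each library (circle, replicate 1; triangle, replicate 2; blue, wild type; red, knockout). Knockout day 5 replicate 1 is highest for histone and erythroid genes, and the replicates on day 1 lie far apart for granule genes.

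T cell genes had a higher course in the knockout in all 25 tested. The median interaction was 0.47, 5 had an unadjusted p under 0.05 and libraries were apart for 13. In the wild type 14 fell and 0 rose, and in the knockout 1 fell and 1 rose. The median genotype difference was -0.35 on day 1 and 0.13 on day 5. Summed over the list, the level on day 1 was 811.6 and 898.3 CPM in wild-type and 751.5 and 640.0 in knockout mice. On day 5 it was 527.3 and 497.7 against 491.6 and 616.2, which overlap. With 1 library left out the median interaction ranged from 0.27 to 0.62. Genes of 1 cell type can move together, so the members are not separate observations. Trbc1, a constant region of the T cell receptor beta chain, stood at 35.4 and 38.6 CPM in the wild type on day 1, then 17.0 and 17.4 on day 5. Knockout libraries stood at 24.5 and 23.5 on day 1, below the wild type, and at 15.9 and 21.9 on day 5, overlapping it. The interaction was 0.76 (0.18 to 1.33, adjusted p = 0.742). For Cd8b1, a chain of the CD8 coreceptor, it was 0.72 (0.17 to 1.26, adjusted p = 0.742).

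Plasma cell genes leaned the other way. Of 24 tested, 3 had an interaction above 0, with a median of -0.30, an unadjusted p under 0.05 in 4 and libraries apart for 10, all below. In the wild type 7 rose and 8 fell, and in the knockout 5 rose and 11 fell. Summed over the list, the level went from 8079 and 7157 CPM to 9997 and 12820 in the wild type. In the knockout the sum went from 6868 and 6895 to 6797 and 8165. Prdm1, which encodes the plasma cell regulator Blimp-1, stood at 15.2 and 13.7 CPM, then 6.37 and 7.85 in the wild type, and at 19.3 and 15.5, then 5.13 and 4.74 in the knockout. It fell in both (log2 -1.02 and -1.81), with an interaction of -0.80 (-1.47 to -0.12, adjusted p = 0.758).

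Myeloid lists were below 0 but their day 1 replicates differed. Granule genes of immature neutrophils, with 0 of 16 above 0 and a median of -1.31, summed to 457.8 and 219.2 CPM in the wild type on day 1 and to 404.2 and 643.8 in the knockout. Libraries were apart for 1 member. The median was -0.36 without knockout day 1 replicate 2. Ctsg, a protease of neutrophil granules, stood at 0.839 and 0.335 CPM on day 1 in wild-type and at 0.618 and 2.77 in knockout mice, which overlap. Mature neutrophil genes had a median of -0.57 with 2 of 18 above 0, and -0.06 without wild-type day 1 replicate 2. Red pulp macrophage genes had a median of -0.35 with 4 of 20 above 0, and 0.01 without that same library.

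Cd5l, a secreted macrophage protein, stood at 12.97 and 8.70 CPM in the wild type on day 1 against 19.95 and 20.01 in the knockout. On day 5 it stood at 32.5 and 30.3 against 28.2 and 34.4. The day 1 groups were apart and the day 5 groups overlapped, and it rose in both (log2 1.54 and 0.65). The interaction was -0.89 (-1.51 to -0.27, adjusted p = 0.651).

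Genes typical of epithelia were at low levels. Of 9 tested (15 listed), 3 were above 0, the median was -0.59, 4 had an unadjusted p under 0.05, all below, and libraries were apart for 5 below and 1 above. Cdhr2, a cadherin of the brush border, stood at 0.790 and 0.862 CPM in the wild type on day 1, then 31.0 and 27.0 on day 5. In the knockout it stood at 1.78 and 2.42, then 26.2 and 26.9, higher than the wild type on day 1. It rose in both genotypes (log2 5.12 and 3.65), and the interaction was -1.47 (-2.38 to -0.57, adjusted p = 0.617). A fit on the 4 groups alone called it (adjusted p = 0.0376). Cldn2, a tight junction protein, gave -1.89 (-2.81 to -0.98, adjusted p = 0.465). In edgeR it was called higher in the knockout on day 1 (log2 2.28, adjusted p = 0.0065). On day 5 the genotype difference was 0.38 (adjusted p = 0.941).

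Nt5c3 and Nxpe2, picked after their values were seen, were called by DESeq2 and by the fit on 4 groups. Nt5c3, a pyrimidine nucleotidase of red cells, stood at 30.8 and 26.8 CPM, then 45.8 and 37.4 in the wild type, and at 20.1 and 21.2, then 64.1 and 58.9 in the knockout (interaction 1.05, 0.62 to 1.47, adjusted p = 0.294). Nxpe2 stood at 10.8 and 10.2, then 73.0 and 66.8 in the wild type, and at 7.15 and 7.63, then 135.7 and 106.8 in the knockout (interaction 1.30, 0.72 to 1.88, adjusted p = 0.458). Both were lower in the knockout on day 1 and higher on day 5, without overlap.

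Cytosolic ribosomal protein genes fell in 75 of 79 in wild-type and 76 in knockout mice, and their interactions were spread on both sides of 0 (40 above, median 0.00, none with an unadjusted p under 0.05). Ribosome biogenesis genes fell in 30 of 30 in each. All of their interactions were below 0 with a median of -0.17, none had an unadjusted p under 0.05, and libraries were apart for 1, below.

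Heat shock genes had 10 of 15 above 0 with a median of 0.25, and libraries were apart for 6 above and 1 below. In the wild type 9 fell and in the knockout 6, with median changes of -0.999 and -0.49. Hspa1b, an inducible Hsp70, stood at 98.7 and 234.7 CPM in the wild type on day 1 and at 17.4 and 18.5 on day 5. Knockout libraries were at 26.7 and 81.2 on day 1 and at 59.1 and 27.4 on day 5, below the wild type on day 1 and above it on day 5. Replicates differed widely, and its interaction of 2.90 had an interval of -0.30 to 6.09 (adjusted p = 0.853).

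The other 27 lists had median interactions between -0.39, for marginal zone macrophage genes, and 0.20, for marginal zone B cell genes, and 0 of their members passed the edgeR test. Among marginal zone B cell genes, 7 of 12 were above 0, 2 had an unadjusted p under 0.05 and libraries were apart for 4, all above. Their median was -0.0067 without knockout day 5 replicate 2, and that of marginal zone macrophage genes was -0.04 without wild-type day 1 replicate 2. Cd36, a scavenger receptor that is high in these B cells and also made by macrophages and endothelium, stood at 27.3 and 31.1 CPM, then 43.4 and 32.4 in the wild type, and at 24.1 and 26.6, then 63.7 and 61.8 in the knockout. The knockout was lower on day 1 and higher on day 5 without overlap. It rose in the knockout (log2 1.31), its wild-type change was 0.38 (adjusted p = 0.084), and the interaction was 0.93 (0.43 to 1.44, adjusted p = 0.526). S1pr1, a receptor that guides lymphocyte exit, had an interaction of 0.62 (0.19 to 1.06, adjusted p = 0.651).

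Monocyte genes had 3 of 15 above 0 and a median of -0.33, which was -0.0042 without wild-type day 1 replicate 2. Ly6c2, a surface marker of inflammatory monocytes, was an exception: it fell from 221.9 and 179.1 to 44.2 and 51.0 CPM in the wild type, while knockout levels fell from 112.5 and 126.4 to 36.5 and 45.5. Its interaction was 0.53 (0.10 to 0.96, adjusted p = 0.742). Among the mitochondrially encoded RNAs, 5 of 15 were above 0 with a median of -0.20, which was 0.02 without knockout day 1 replicate 2. The member with the smallest p was mt-Nd6, a subunit of complex I, with levels of 24.0 and 32.4, then 29.5 and 34.3 CPM in the wild type, and 47.9 and 43.4, then 32.9 and 22.5 in the knockout. It was higher in the knockout on day 1 and the groups overlapped on day 5. It fell in the knockout (log2 -0.72), and its interaction was -0.90 (-1.47 to -0.33, adjusted p = 0.617).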

How the data were processed

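Total RNA of spleen cells was sequenced in 16 libraries, 2 for each genotype and day. Per the submitters' processing notes, bcl2fastq 2.17.1.14, Trimmomatic, HISAT2 and TopHat were used with build mm10, with no roles given. The deposited tables give per transcript a fragment count, a signal that scales the count to total fragments (FPM), and FPKM. Per the file headers the authors also give the transcript size. One transcript per symbol was kept, coding where there was one.

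Counts were tested with edgeR 4.0.16 (quasi-likelihood, TMM over library totals, its default filter, all 16 libraries in 8 groups), with Benjamini-Hochberg adjustment over 18745 genes and a threshold of 0.05. DESeq2 1.42.0 and limma 3.58.1 (log2 of FPKM plus 0.5 or 0.1) were alternatives. The 95% intervals use the fitted standard error. Simulated counts with known interactions were run through the same fit to check the sign and size of its estimates. They were drawn with the spread that the fit itself had estimated, so they cannot test that spread. Interactions smaller than those simulated were not tested.

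The comparison, the 45 lists and their genes were chosen with earlier results of these data known. Genes named were Eif2ak2, up to 15 called per direction with an FPKM of 1 or more (none qualified), and per list up to 3 called or else the 2 with the smallest p; Gm25395 was named as the only call. Nothing in the labels pairs replicate numbers across groups. The fit took the libraries as unpaired, and p-values measure the spread between libraries, each a pool of 2 mice.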

Additional observations from a re-analysis of the deposited data

Results flagged for a closer look

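The course of Gm25395 from day 1 to day 5 differed between the genotypes by the test of the difference itself in the fit reported. Its interaction was 1.447 on the log2 scale (adjusted p = 0.039, edgeR). Levels were 134.6 and 130.5 CPM in the wild type on day 1 against 62.4 and 61.3 in the knockout, and 37.4 and 36.6 against 50.8 and 43.3 on day 5. The call was lost in 19 of 30 alternatives, with the value between 1.345 and 1.58 over all of them.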

How the results depend on the processing

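The course counts in each genotype stayed within 1.5 times in all alternatives run (5215 to 9055 in the wild type, 4908 to 7829 in the knockout), but the share of higher calls in the wild type was 53.6% with TMM, 63.6% with no composition scaling, and 30% with limma on FPKM plus 0.5 (30.5% plus 0.1); in the knockout it was 51.1%, 55.9%, 39.2% and 39.4%. With 2 libraries a group, small interactions could not be detected.

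The interaction gave 1 call. It gave 5 with DESeq2, 10 on the 4 groups alone and 132 with no filter on low counts. It gave 0 with no composition scaling, with an FPKM of 2 or more in 2 libraries, with limma at either pseudocount, with isoforms summed and with a transcript of any type. Leaving out 1 library gave 0 to 2: Itgad without wild-type day 1 replicate 1, Dnaaf2 without wild-type day 5 replicate 1, and 2 calls, Gm25395 among them, without either wild-type day 0 library. With the replicate number as a block it gave 0 (Gm25395 adjusted p = 0.067), or 1 with a GC and length offset. Over all genes, deviations of same-numbered libraries correlated between -0.0557 and 0.0475. A deviation shared in only some genes might not show in these values.

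Knockout against wild type on day 1 gave 35 calls. It gave 14 with no composition scaling, 200 with DESeq2, 432 with no filter, 11 with the FPKM filter, 3 with limma plus 0.1, 12 with isoforms summed, 313 on the 4 groups alone, 65 with the GC and length offset and 81 without both day 2 groups. Leaving out 1 library gave 4 to 186, with 186 and 184 without wild-type day 0 replicates 1 and 2. On day 5 it gave 1 call, and 72 with DESeq2, 208 with no filter, 23 and 0 with limma plus 0.5 and 0.1, 20 on the 4 groups alone, 9 without both day 2 groups, and 0 to 11 with 1 library left out. The day 2 and left-out day 0 settings were chosen after seeing the data.

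Of the list medians, that of eIF2 kinases and factors turned to -0.046 with no composition scaling, -0.022 with the FPKM filter, -0.011 with the GC and length offset (also with the replicate block), and from -0.046 to 0.141 with 1 library left out. Ribosomal proteins turned to -0.046 with no composition scaling and -0.023 with the FPKM filter, and ranged from -0.043 to 0.113 with 1 library left out. Ribosome biogenesis turned to 0.027 without wild-type day 5 replicate 2 (range -0.36 to 0.027), red pulp macrophage genes to 0.013 without wild-type day 1 replicate 2 (range -0.725 to 0.013) and erythroid genes to -0.021 without wild-type day 1 replicate 1 (range -0.021 to 1.64). Marginal zone B cell genes turned to -0.0067 without knockout day 5 replicate 2 (range -0.0067 to 0.309) and mitochondrially encoded RNAs to 0.023 without knockout day 1 replicate 2 (range -0.393 to 0.023). Monocyte genes ranged from -0.727 to -0.0042 and marginal zone macrophage genes from -0.612 to -0.036 with 1 library left out. Cholesterol genes, near 0, turned to 0.018 with DESeq2 or its size factors, 0.053 with no filter and 0.131 and 0.133 with limma, and ranged from -0.098 to 0.094 with 1 library left out. The causes were not tested. The other medians among these 23 lists kept their sign, as did the genes recomputed; the remaining lists were recomputed under no alternative.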
